A study of Mus musculus with 16 samples.

Results

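The semaphorins, plexins and neuropilins were measured in hearts of *Chd7fl/fl;Mesp1Cre* and control mouse embryos. They were chosen by name, as the 31 genes *Sema3a* to *Sema3g*, *Sema4a* to *Sema4d*, *Sema4f*, *Sema4g*, *Sema5a*, *Sema5b*, *Sema6a* to *Sema6d*, *Sema7a*, *Plxna1* to *Plxna4*, *Plxnb1* to *Plxnb3*, *Plxnc1*, *Plxnd1*, *Nrp1* and *Nrp2*. Each had a probe set naming that gene alone, among 19937 genes measured in this way, and *Sema4d* had 2. There were 16 hearts of C57BL/6 embryos, each on an Affymetrix Mouse Gene 1.0 ST array of its own. Embryos were taken at E11.5 or E13.5, and either age gave 4 hearts of each genotype. Mutant embryos carried floxed alleles of the chromatin remodeller gene *Chd7* on both chromosomes together with Cre recombinase under the control of *Mesp1*, which acts in the anterior mesoderm and hence in most of the myocardium and endocardium, but not in the neural crest. The labels call the controls WT, whereas the paper describes them as *Chd7+/+;Mesp1-Cre*. The stated cross cannot produce embryos without a floxed allele, so the exact genotype of the controls is not settled here. A whole heart was used in each case, so that a value averages myocardium, endocardium, epicardium, cushions, nerve and blood, and fewer cells of one type cannot be told apart from less RNA per cell.

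Semaphorins are ligands that steer migrating cells, axons and vessels, mostly by repulsion. Class 3 members are secreted and bind a neuropilin, which joins with a plexin to pass the signal on, although Sema3e can bind plexin D1 directly. Members of classes 4 to 7 are held in the membrane and bind plexins without a neuropilin. In the developing heart, Sema3c is made by outflow tract myocardium and is needed for the arrival of neural crest cells and for septation, Sema3a shapes sympathetic innervation, Sema3d acts in the patterning of coronary and pulmonary veins, and plexin D1 is needed in the endothelium.

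All 11 cardiomyocyte markers were detected in these hearts, and *Chd7* itself was lower in every mutant heart. Its brightest probe set ranged from 9.16 to 9.73 in mutant and from 10.64 to 10.89 in control hearts at E11.5, and from 8.88 to 9.07 against 9.83 to 10.30 at E13.5, on the log2 scale of the arrays. Whether this probe set lies in the deleted part of the gene was not examined. Some hearts stood apart. Mutant E11.5 replicates 3 and 4 had 27 and 38 genes over 1 above every other heart of their stage on the log2 scale, and control E13.5 replicate 1 had 21, against 0 to 5 in the other hearts. The labels give no sex, and 3 Y-linked genes were high in 4 controls and 2 mutants of the earlier stage and in 2 controls and 1 mutant of the later one.

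A gene was called higher or lower when its adjusted p (limma, Benjamini-Hochberg over all probe sets) was under 0.05 and its log2 fold change was over 0.5 in size. At E11.5, 1 of the 31 genes was called lower in the mutant, against 0.15% of all genes, and none was called higher, against 0.1%. At E13.5, 1 was called lower, against 0.0301% of all genes, and none higher, against 0.015%. For the mean genotype effect over both stages, which uses 8 mutant and 8 control hearts, 2 were called lower, against 0.276% of all genes, and none higher, against 0.14%. The genes behind these counts were *Sema3a* and *Sema3c*, both secreted class 3 ligands. No plexin or neuropilin was called in any of these comparisons. At an unadjusted p under 0.05 in limma, with no fold threshold, 2 members were lower and 2 higher at E11.5 (4.77% and 4.57% of all genes). The same count gave 2 lower and 1 higher at E13.5 (1.98% and 1.97%), and 3 lower and 4 higher in the mean over both stages (4.26% and 4.53%).

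Both genes lie on chromosome 5, in a stretch that holds *Sema3d*, *Sema3a*, *Sema3e* and *Sema3c* in this order. The RefSeq promoter windows of these genes (GRCm38.p6, plus strand, 250 bases before and 50 after the annotated start) are printed here 5′ to 3′ because the 2 genes that were lower and the 2 neighbours that were not can then be set side by side, with CpG dinucleotides in capitals. They lie at chr5:12382916-12383215, chr5:13396534-13396833, chr5:14025026-14025325 and chr5:17574566-17574865 in the same order.
Sema3d: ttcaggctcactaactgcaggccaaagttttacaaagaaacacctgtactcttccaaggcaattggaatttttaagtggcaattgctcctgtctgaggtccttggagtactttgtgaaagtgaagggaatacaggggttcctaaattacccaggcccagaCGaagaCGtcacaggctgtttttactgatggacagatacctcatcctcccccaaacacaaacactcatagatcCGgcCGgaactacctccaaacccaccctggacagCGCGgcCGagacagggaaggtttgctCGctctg
Sema3a: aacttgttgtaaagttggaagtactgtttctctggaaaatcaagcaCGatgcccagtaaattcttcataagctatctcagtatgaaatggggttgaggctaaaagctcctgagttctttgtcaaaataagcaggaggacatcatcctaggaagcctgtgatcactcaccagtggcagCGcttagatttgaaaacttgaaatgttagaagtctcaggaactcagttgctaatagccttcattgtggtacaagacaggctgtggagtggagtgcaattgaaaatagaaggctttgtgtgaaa
Sema3e: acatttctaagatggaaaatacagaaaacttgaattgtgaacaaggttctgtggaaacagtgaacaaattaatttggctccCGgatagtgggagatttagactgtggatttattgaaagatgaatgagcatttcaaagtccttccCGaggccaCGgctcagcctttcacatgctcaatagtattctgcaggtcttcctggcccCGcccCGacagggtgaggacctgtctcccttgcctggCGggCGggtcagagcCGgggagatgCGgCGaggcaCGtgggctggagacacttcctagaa
Sema3c: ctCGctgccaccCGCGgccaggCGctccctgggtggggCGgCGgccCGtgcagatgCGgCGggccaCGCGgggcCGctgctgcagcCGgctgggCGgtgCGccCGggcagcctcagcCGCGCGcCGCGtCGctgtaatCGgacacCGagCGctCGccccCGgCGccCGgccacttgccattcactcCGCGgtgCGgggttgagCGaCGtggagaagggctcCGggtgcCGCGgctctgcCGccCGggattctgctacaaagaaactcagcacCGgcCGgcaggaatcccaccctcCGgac

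The promoter set used here holds 1 window for each of these genes, so the counts hold for that annotated start and not for others the gene may use. The windows of the 2 genes with lower expression were unlike each other in base composition. That of *Sema3a* held 2 CpG dinucleotides and 41.3% G and C, and 85.9% of 32851 RefSeq windows of this length held as many CpG or more. That of *Sema3c* held 42 CpG and 75.7% G and C, and only 3.03% of windows held as many or more. The windows of *Sema3d* and *Sema3e* lay between these, with 8 and 11 CpG, where the median of all windows was 7. The letters GGGCGG, searched on both strands, were found 3 times in the window of *Sema3c* and 2 times in that of *Sema3e*, not in the others, and in 35.7% of all windows. TATAAA, on either strand, was in none of the 4 windows and in 13.6% of all. CCAAT was found once, in that of *Sema3d*, and in 37.4% of all.

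*Sema3a*, which repels axons through neuropilin-1 and A plexins, was lower in mutant hearts at both stages. At E11.5 its log2 values were 9.80, 9.90, 9.87 and 9.78 in control hearts and 9.05, 9.03, 9.02 and 8.66 in mutant hearts. At E13.5 they were 9.73, 9.94, 9.94 and 9.67 in control hearts and 9.31, 8.91, 9.15 and 9.10 in mutant hearts. Every mutant heart thus lay under every control heart of its stage, and the single lowest value was that of mutant E11.5 replicate 4. At E11.5 the log2 fold change was -0.89 (standard error 0.11, adjusted p = 0.00264 in limma), which put the mutant level at 53.8% of the control level (95% interval 45.5% to 63.6%). At E13.5 it was -0.70 (standard error 0.11, adjusted p = 0.0437 in limma), or 61.4% of the control level (51.9% to 72.6%). The exact two-sided permutation test of single hearts gave p = 0.0286 at each stage, which is the smallest p that 4 against 4 allows. Fitting the 8 hearts of E11.5 by themselves ended the call there (adjusted p = 0.109). The call at E13.5 was near the threshold, and was lost without any 1 of 13 of the 16 hearts. The Y-linked covariate (adjusted p = 0.107 in limma) and leaving out the 3 hearts that stood apart (0.0623) also ended it. So did fitting the stage alone (0.114), quantile normalisation (0.074), centring arrays on their medians (0.0572) and a term for the replicate number (0.277). The log2 fold change lay between -0.77 and -0.63 throughout. The mean over both stages was -0.80 (standard error 0.08, adjusted p = 0.000156 in limma), and this call was kept in each alternative tried.

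*Sema3c* was lower by a similar amount at both stages but was more variable between hearts. Its log2 values at E11.5 were 9.39, 9.38, 9.37 and 9.28 in control hearts and 8.93, 8.51, 8.51 and 8.92 in mutant hearts. At E13.5 they were 8.99, 9.24, 9.18 and 8.82 in control hearts and 8.59, 8.20, 8.78 and 8.05 in mutant hearts. Mutant and control hearts did not overlap at either stage, although the highest mutant heart at E13.5, at 8.78, came close to the lowest control heart, at 8.82. At E11.5 the log2 fold change was -0.64 (standard error 0.16, adjusted p = 0.142 in limma) and at E13.5 it was -0.65 (standard error 0.16, adjusted p = 0.383), and neither was called alone. The mean over both stages was -0.65 (standard error 0.11, adjusted p = 0.0143 in limma), or 63.9% of the control level (95% interval 54.1% to 75.5%), and was called. That call was kept without each of the 16 hearts in turn. It was lost without the 3 hearts that stood apart together (log2 fold change -0.66, adjusted p = 0.0888 in limma). With a term for the replicate number it was lost as well (-0.70, adjusted p = 0.0662).

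**Figure D1:**
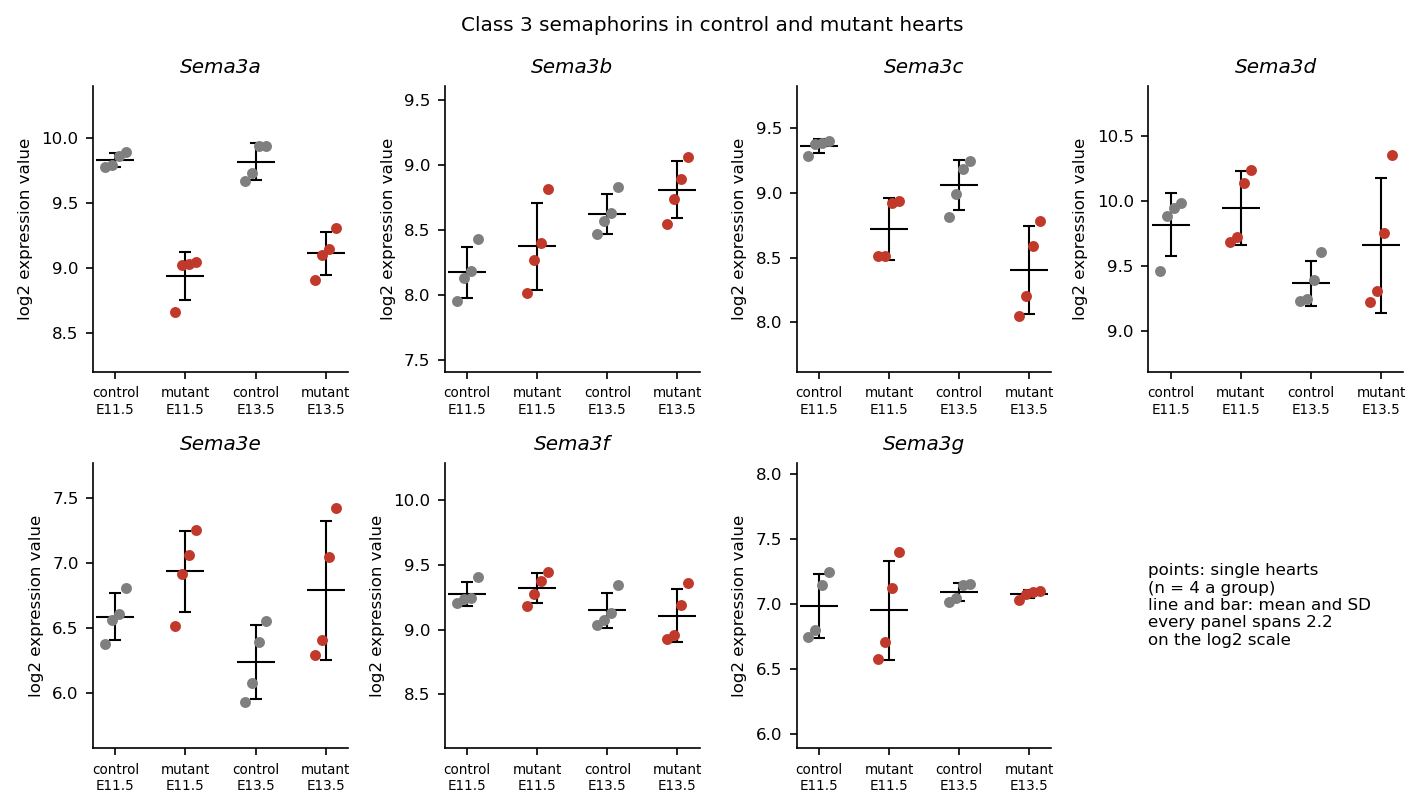
Log2 expression values of the 7 class 3 semaphorins (vertical axis, a separate range for each gene) in single control (grey) and mutant (red) hearts at E11.5 and E13.5. Points are hearts (n = 4 a group), the horizontal line is the mean and the bar the SD. Mutant hearts lay under all control hearts of their stage for *Sema3a* and *Sema3c*, and overlapped with them for the other 5 genes.

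For the other 5 class 3 genes the hearts of both genotypes overlapped at each stage and none was called. *Sema3e*, the ligand of plexin D1, had the highest mean effect of the class. It ranged from 6.52 to 7.26 in mutant hearts against 6.38 to 6.81 in controls at E11.5, and later from 6.29 to 7.42 against 5.93 to 6.55. Its mean genotype effect was 0.45 (95% interval 0.10 to 0.80, adjusted p = 0.465 in limma). The mean effect of *Sema3d* was 0.21 (95% interval -0.12 to 0.54) and that of *Sema3b* 0.19 (-0.05 to 0.44). *Sema3f*, a ligand that prefers neuropilin-2, had a mean effect of 0.0045 (-0.17 to 0.17), and *Sema3g* one of -0.02 (-0.26 to 0.22). The class therefore held effects in both directions, with a median of 0.0045 against 0.0022 over all genes tested.

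**Figure D2:**
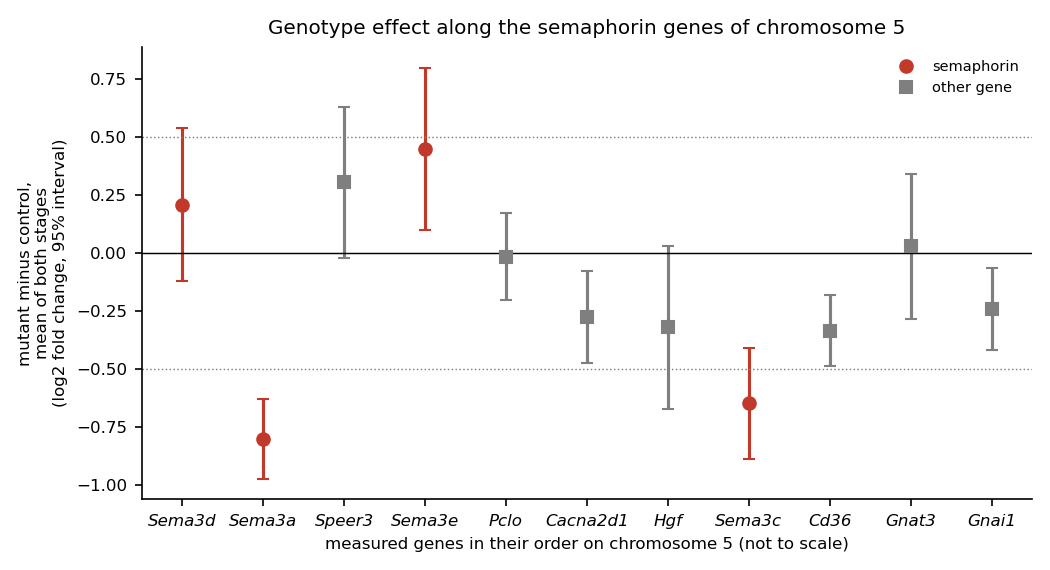
Mean genotype effect over both stages (vertical axis, log2 fold change of mutant minus control with its 95% interval) of the measured genes from *Sema3d* to *Gnai1*, in their order on chromosome 5 (horizontal axis, not to scale). Red circles are semaphorins and grey squares other genes, and dotted lines mark 0.5 in either direction. *Sema3a* and *Sema3c* lay under the lower line, and *Sema3d* and *Sema3e*, either side of *Sema3a*, lay above 0.

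The genes between and beside these semaphorins were examined because *Sema3a* and *Sema3c* lie in one stretch of the chromosome. RefSeq places 18 other protein-coding genes between *Sema3d* and *Sema3c*, of which 4 had a probe set of their own, and none of these was called in either direction in the mean over both stages. *Speer3*, between *Sema3a* and *Sema3e*, had a mean effect of 0.31. *Pclo*, which encodes a protein of the presynaptic zone, had one of -0.01, *Cacna2d1*, a calcium channel subunit, one of -0.27 (adjusted p = 0.408 in limma) and *Hgf*, the ligand of the receptor Met, one of -0.32 (adjusted p = 0.687). Beyond *Sema3c*, the fatty acid transporter gene *Cd36* had a mean effect of -0.33 (adjusted p = 0.0665), *Gnat3* one of 0.03 and *Gnai1* one of -0.24 (adjusted p = 0.426). *Speer3*, *Pclo* and *Gnat3* were dim, with mean levels under percentile 40 of the array. *Cacna2d1*, *Hgf*, *Cd36* and *Gnai1* were not dim, and each lay below 0. At E13.5 only, mutant hearts lay fully under control hearts for *Cacna2d1*, *Cd36* and *Gnai1*, as for 2.02% of all genes. After quantile normalisation the mean effect of *Cd36* was -0.34 (adjusted p = 0.0432 in limma), within 0.5 in size. The cause of these smaller shifts was not tested.

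Among the membrane-bound semaphorins, none of the 6 class 4, 2 class 5 and 4 class 6 genes, nor *Sema7a*, was called between genotypes. *Sema4a* had the highest mean effect of these, 0.33 (95% interval 0.02 to 0.63, adjusted p = 0.602 in limma). At E11.5 it ranged from 6.78 to 7.73 in mutant and from 6.44 to 6.84 in control hearts, which overlapped. *Sema7a*, the member anchored by a lipid tail, had the lowest, -0.22 (-0.48 to 0.05). The class 4 genes ranged in mean effect from -0.06 to 0.33, the class 6 genes from -0.17 to 0.05, and the class 5 genes stood at 0.19 (*Sema5a*) and 0.18 (*Sema5b*). The 2 probe sets of *Sema4d*, a ligand of plexin B1, disagreed in sign, with mean effects of 0.14 for the brighter and -0.23 for the other. *Sema4f* was the only one of the 31 genes with a mean level under percentile 40 of the array.

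The receptors differed little between genotypes. The mean effects of the A plexins, the partners of neuropilins, ranged from -0.02 for *Plxna1* to 0.18 for the X-linked *Plxna3* (95% interval 0.05 to 0.32, adjusted p = 0.426 in limma). Those of the B plexins, receptors for class 4 ligands, ranged from -0.20 for *Plxnb3*, also X-linked, to 0.03 for *Plxnb2*. *Plxnc1*, the receptor of Sema7a, stood at -0.20 (-0.39 to -0.0049) and *Plxnd1* at -0.16 (-0.34 to 0.03). *Nrp1*, shared by class 3 semaphorins and VEGF, stood at 0.05 (-0.08 to 0.19) and *Nrp2* at -0.09 (-0.35 to 0.17). For each of the 11 receptors the whole 95% interval of the mean effect lay between -0.5 and 0.5 on the log2 scale, as it did for 15 of the 20 semaphorins and for 86.4% of all genes. The exceptions were *Sema3a*, *Sema3c*, *Sema3d*, *Sema3e* and *Sema4a*. No class was tested against another.

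**Figure D3:**
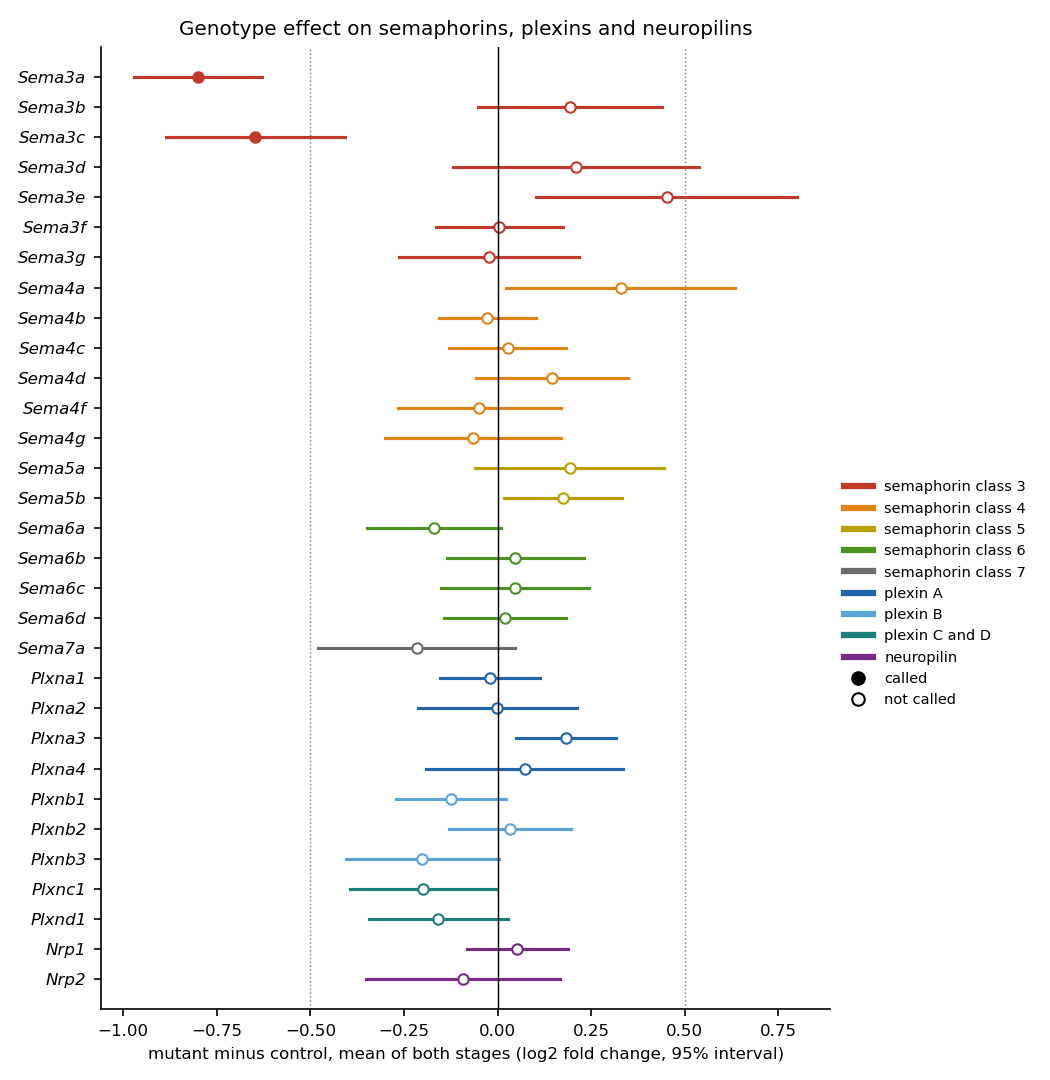
Mean genotype effect over both stages (horizontal axis, log2 fold change of mutant minus control) of the 31 genes, coloured by class. Lines are 95% intervals, filled points were called, and dotted lines mark 0.5 in either direction. *Sema3a* (-0.80) and *Sema3c* (-0.65) stood apart from the other genes, and the intervals of the 11 plexins and neuropilins lay inside the dotted lines.

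The mutant effect was also compared between stages, from separate hearts. It had the same sign at E11.5 and E13.5 in 21 of 31 genes (67.7%), against 56.3% of all genes. The difference of the effects between stages was 0.19 for *Sema3a* (95% interval -0.15 to 0.53) and -0.01 for *Sema3c* (-0.49 to 0.47). No member, and 0% of all genes, was called in this test, and at an unadjusted p under 0.05 it picked 1 member lower and none higher, against 1.85% and 2.12% of all genes. That member was *Sema4c*, at -0.38 (adjusted p = 1.00 in limma). Hearts of both genotypes were fully apart at E11.5 for 3 members on the lower side, against 1.94% of all genes, and for none on the higher side, against 1.99%. At E13.5 they were apart for 3 on the lower side, against 2.02%, and 2 on the higher side, against 2.06%. Apart from *Sema3a* and *Sema3c* these were *Plxnb1* at E11.5 (-0.17), *Plxnd1* at E13.5 (-0.21), and *Sema5b* (0.21) and *Plxna3* (0.15) at E13.5, all within 0.5 and not called. Their hearts were close together: *Plxnd1* ranged from 11.07 to 11.13 in mutant and from 11.21 to 11.56 in control hearts at E13.5, and *Plxna3* from 8.23 to 8.33 against 8.07 to 8.22.

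**Figure D4:**
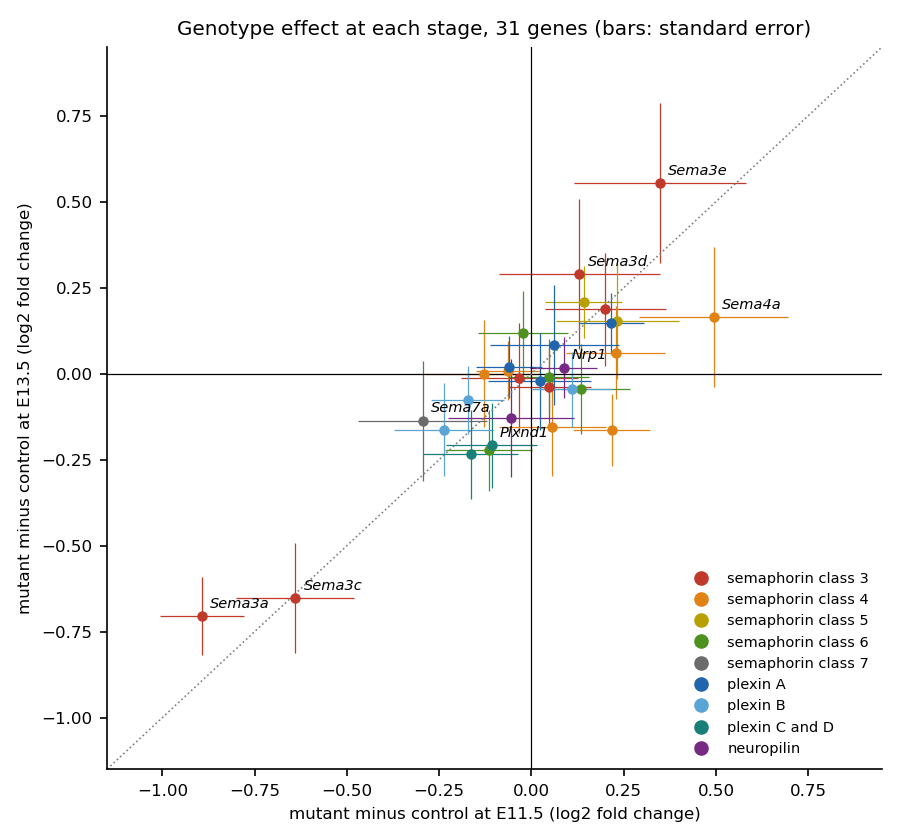
Genotype effect (log2 fold change of mutant minus control) at E11.5 (horizontal axis) and at E13.5 (vertical axis) of the 31 genes, coloured by class. Bars are standard errors and the dotted line marks equal effects. *Sema3a* (-0.89 and -0.70) and *Sema3c* (-0.64 and -0.65) lay near the dotted line, away from the other members.

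Markers of other cell types were measured in the same hearts. Of 12 measured markers of neural crest, glia and neurons, of which *Dbh* was dim, 1 was called lower in the mean over both stages (*Ednrb*, -0.52, adjusted p = 0.0373 in limma), against 0.276% of all genes. The 12 did not go one way, as 8 lay below 0 and 4 above at E11.5 (median -0.10), and 4 below and 8 above at E13.5 (median 0.07). Their summed level, in which the brightest genes weigh most, ranged from 11.64 to 11.87 in mutant and from 11.92 to 12.14 in control hearts at E11.5, and from 11.81 to 12.21 against 12.33 to 12.42 at E13.5. Of 6 outflow tract genes, of which *Tdgf1* and *Fgf10* were dim, none was called, and 4 were lower at an unadjusted p under 0.05 in limma in the mean over both stages, against 4.26% of all genes. At each stage 5 of the 6 lay below 0. Their summed level ranged from 11.04 to 11.20 in mutant and from 11.34 to 11.57 in control hearts at E11.5, and from 10.84 to 11.08 against 11.12 to 11.24 at E13.5. Both sums were lower in every mutant heart than in every control heart of its stage, and their part in the values of *Sema3a* and *Sema3c* was not tested. The summed levels of the other 8 marker lists, from cardiomyocytes to macrophages, overlapped between genotypes at each stage. Of their genes, the pericyte marker *Rgs5* was called lower at E11.5 (-2.04, adjusted p = 0.034 in limma), with no overlap of hearts, and stood at 0.32 at E13.5 (adjusted p = 1.00). All 8 epicardial markers lay above 0 at both stages (medians 0.27 and 0.32), and none was called. Of the 7 cushion mesenchyme markers, 6 lay below 0 in the mean over both stages (median -0.25), and none was called. At an unadjusted p under 0.05 in limma, 3 of these were lower and 1 higher there, against 4.26% and 4.53% of all genes.

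Normal change was examined by comparing control hearts of E13.5 with those of E11.5. The spread of values within an array differed between the stages (SD 2.18 to 2.26 at E11.5 and 2.38 to 2.42 at E13.5), so a stage change was called only where the same call was made on the values as deposited and after quantile normalisation of all arrays. Of the 31 genes, 2 rose in control hearts, against 9.92% of all genes, and none fell, against 7.14%. These were *Sema4c*, a ligand of plexin B2, and *Sema5a*, whose extracellular part carries thrombospondin repeats. Neither is a class 3 gene. On the values as deposited alone, 3 were higher and none lower (16.5% and 12.3% of all genes), the added gene being *Nrp1*, and in mutant hearts 2 were higher and none lower (16.8% and 12.8%). At an unadjusted p under 0.05 in limma, 9 were higher and 1 lower in controls (30.4% and 21.3%), and 11 and 2 in mutants (30.9% and 22%).

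Cell type markers also differed between the stages. Their summed levels were taken on the values as deposited alone, whose spread within arrays was wider at E13.5. From E11.5 to E13.5 in control hearts, the summed levels were higher without overlap for the markers of endothelium and endocardium (14.22 to 14.31, then 14.63 to 14.70), blood and macrophages (11.30 to 11.62, then 11.92 to 12.38) and cardiomyocytes (16.20 to 16.23, then 16.46 to 16.56). Those of trabecular and compact myocardium, cushion mesenchyme and the neural list were also higher without overlap, and those of the outflow tract lower. The brightest genes weigh most in these sums. Of single markers, 8 of the 12 neural ones (median -0.19) and 4 of the 7 of cushion mesenchyme (median -0.18) lay below 0 in the same comparison. By the rule of both scalings, 5 of 13 endothelial and 6 of 11 blood markers were called higher, and none lower. The shares of all genes were 9.92% and 7.14%. None of 11 cardiomyocyte and 6 outflow tract markers was called. Of the 12 neural markers, 1 was called higher and 2 lower. Called higher were also 2 of 8 epicardial, 1 of 7 cushion and 1 of 7 smooth muscle and pericyte markers. The same held for 1 of 5 trabecular and 1 of 3 compact markers, and none of these was called lower. The part of these markers in the changes of *Sema4c* and *Sema5a* was not tested.

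*Sema4c* had log2 values of 8.78, 9.08, 8.63 and 8.68 in E11.5 controls, and of 9.85, 9.62, 9.70 and 9.64 in E13.5 controls. The groups did not overlap. The change was 0.91 as deposited (standard error 0.10, adjusted p = 1.2e-05 in limma) and 0.71 after quantile normalisation (adjusted p = 0.000252). In mutant hearts the earlier values were 9.10, 8.91, 8.98 and 9.05 and the later ones 9.63, 9.54, 9.45 and 9.54, again with no overlap. The change there was 0.53 as deposited but 0.32 after quantile normalisation, and was not called. The changes in control and mutant hearts were not shown to differ, as the test of the difference between genotype effects gave above.

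*Sema5a* had log2 values of 8.07, 8.08, 7.91 and 7.98 in E11.5 controls, and of 8.86, 8.75, 9.31 and 8.99 in E13.5 controls. In mutant hearts the earlier values were 8.50, 8.38, 8.38 and 7.71 and the later ones 9.19, 8.99, 9.40 and 8.94. Hearts of the later stage were higher without overlap in both genotypes. The change was 0.97 in control hearts (standard error 0.17, adjusted p = 0.000376 in limma) and 0.82 after quantile normalisation. In mutant hearts it was 0.89 (adjusted p = 0.000713) and 0.71, and this was the only one of the 31 genes called with stage in mutant hearts, where 10.2% of all genes were called higher and 7.28% lower.

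The direction of the stage change depended on scaling for several members. In control hearts its sign turned with quantile normalisation in 7 of the 31 genes (22.6%), against 15.4% of all genes, while the median change of all genes moved only from 0.036 to 0.0065. Of these 7, 5 were receptors, *Plxna2*, *Plxna4*, *Plxnb1*, *Plxnb3* and *Plxnd1*, and no direction is given for them. On the values as deposited, hearts of the 2 stages were fully apart for 9 members on the higher side in control hearts, against 26.8% of all genes, and for 2 on the lower side, against 15.5%. In mutant hearts they were apart for 7 on the higher side, against 24.8%, and none on the lower side, against 14.2%. *Nrp1* was among them in both genotypes. It ranged from 10.61 to 10.75 in E11.5 controls, then from 11.12 to 11.36, with a change of 0.55 as deposited that was 0.32 after quantile normalisation (adjusted p = 0.0161), so that it kept its direction but did not pass both scalings. The axon guidance receptor gene *Plxna3* had a change of 0.44 as deposited and 0.34 after quantile normalisation in controls, and the membrane ligand genes *Sema4b* and *Sema6a* had 0.42 and 0.47 that became 0.25 and 0.27. For *Plxnb2*, the receptor of Sema4c, 0.39 became 0.15, and for *Plxna1* 0.26 became 0.03. *Sema5b* went the other way on both scales, at -0.33 and -0.35. *Sema3d* had a change of -0.45 as deposited and -0.66 after quantile normalisation (adjusted p = 0.112 and 0.0218), and *Sema3c* one of -0.30 and -0.50 (0.142 and 0.0222), so that these 2 class 3 genes would be called lower at E13.5 in control hearts on the second scale alone.

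**Figure D5:**
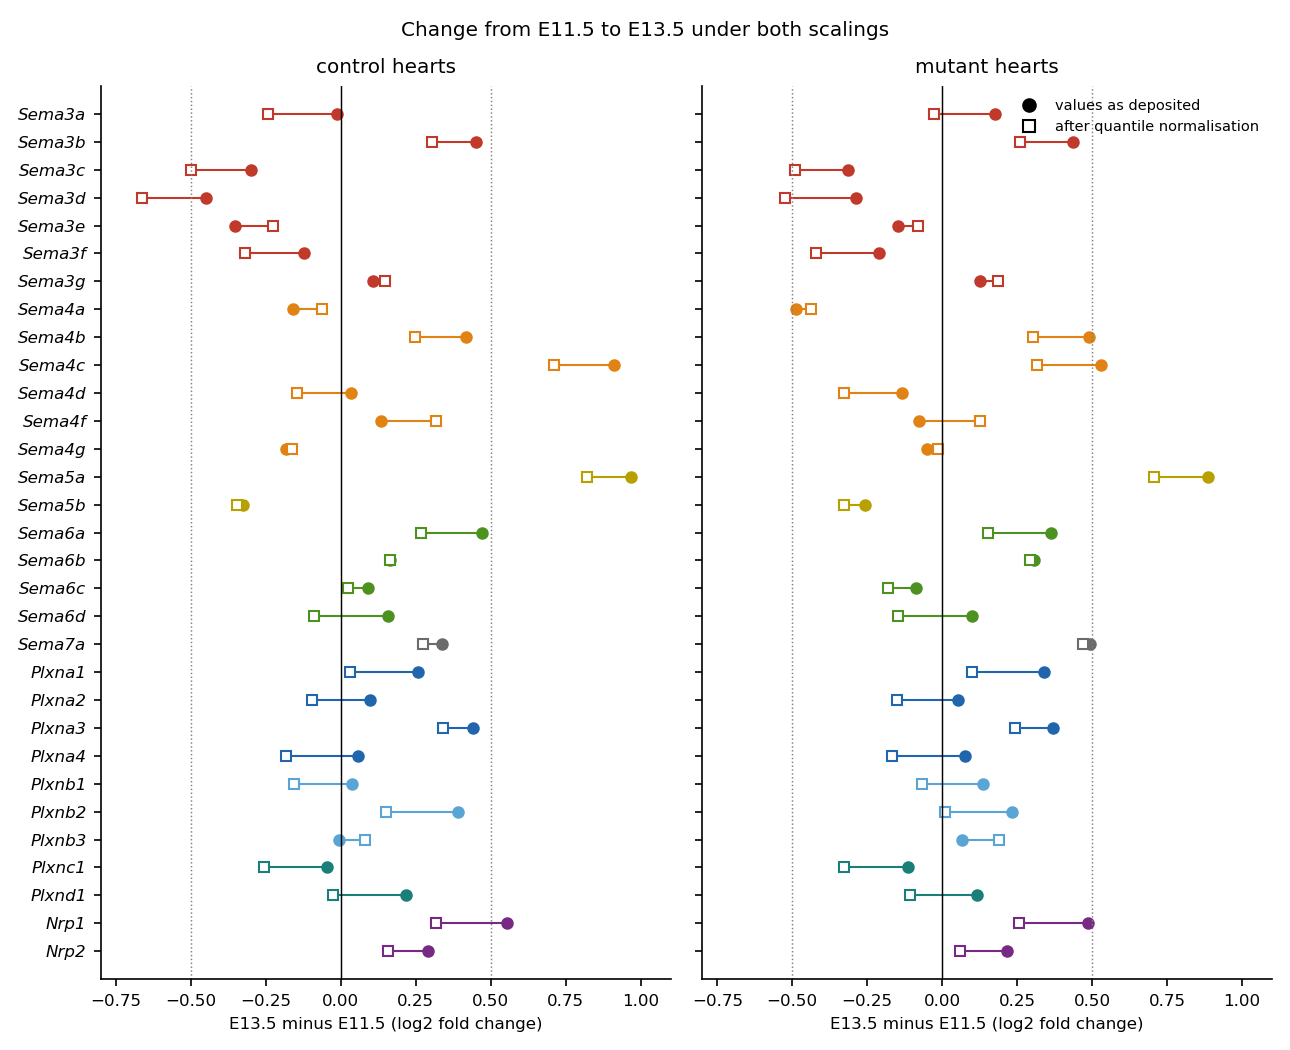
Change from E11.5 to E13.5 (horizontal axes, log2 fold change) of the 31 genes in control hearts (left) and mutant hearts (right). Filled circles are the values as deposited, open squares those after quantile normalisation, colours mark the classes, and dotted lines mark 0.5 in either direction. *Sema4c* and *Sema5a* lay beyond 0.5 on both scales in control hearts, *Sema5a* alone in mutant hearts, and most plexins moved towards or past 0 with quantile normalisation.

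Of 38 other genes of the pathway, with 12 co-receptors, 21 effectors and 5 VEGF ligands that share the neuropilins, none was called between genotypes at either stage alone. At an unadjusted p under 0.05 in limma, 1 was lower and 1 higher at E11.5, against 4.77% and 4.57% of all genes, and 1 lower and 2 higher at E13.5, against 1.98% and 1.97%. In the mean over both stages, 1 was lower and 1 higher, against 0.276% and 0.14% of all genes. The lower gene was *Crmp1*, a cytoplasmic mediator of Sema3a signalling, at -0.55 (standard error 0.11, adjusted p = 0.0488 in limma). The higher gene was *Met*, the Hgf receptor that associates with B plexins, at 0.56 (standard error 0.11, adjusted p = 0.0373). Both were near the threshold, and the calls were lost without any 1 of 14 and of 13 of the 16 hearts, and without the 3 hearts that stood apart. Array weights (adjusted p = 0.0548 and 0.0861 in limma) and centring arrays on their medians (0.0544 and 0.0579) also ended both. So did a term for the replicate number (0.16 and 0.15) and the Y-linked covariate (0.188 and 0.108). With stage, 2 of the 38 fell and 4 rose in control hearts, where 7.14% and 9.92% of all genes did. The lower ones were *Timd2*, a receptor of Sema4a (-0.90), and *L1cam*, a partner of neuropilin-1 (-0.74), whose call was lost without control E11.5 replicate 4. The higher ones were *Pgf*, a VEGF family ligand (1.25), the small GTPase genes *Rras* (0.90) and *Rhoa* (0.76), and *Cd72*, a receptor of Sema4d (0.74), whose call was lost without any 1 of 4 control hearts (replicates 3 and 4 of E11.5, replicates 4 and 5 of E13.5). In mutant hearts, where 7.28% of all genes fell and 10.2% rose, 1 fell, *Timd2* (-0.88), and 5 rose, *Pgf* (1.01), *Rras* (0.81), *Rhoa* (0.76), *Cd72* (0.74) and the kinase gene *Cdk5* (0.75). The mutant calls of *Timd2*, *Cd72* and *Cdk5* were lost without the 3 hearts that stood apart, with changes on the deposited values of -0.81, 0.69 and 0.69 there, and those of *Rhoa* in both genotypes with the median of its probe sets. The mutant calls of *Cd72* and *Cdk5* were each also lost without any 1 of 3 mutant hearts. With a term for the replicate number, *Cd72* was called in neither genotype.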

How the data were processed

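RNA of 16 single hearts was measured on arrays. The authors normalised them with RMA and deposited log2 values, which were used unchanged. Tool versions and the genome build of the array annotation are not given in the sources used here, nor is whether both stages were normalised in one run. Of 34760 probe sets, 21640 named 1 gene, 1321 several and 11799 none, and a gene was read from its probe set of highest mean. All arrays were fitted in limma 3.58.1 (R 4.3.3) with 4 group means (12 residual degrees of freedom), adjusting p by Benjamini-Hochberg over all probe sets. Calls needed a log2 fold change over 0.5 in size and an adjusted p under 0.05, for stage changes on both scalings. Summed marker levels are log2 of the sum of unlogged deposited values. Genes and lists were chosen with earlier results of these data known, and all members could be named. Values of single hearts are given for members called, or with p under 0.01 between genotypes. The labels do not say whether hearts came from separate litters, so p measures the spread between these hearts. The fit was tested on simulated data. Alternatives were array weights, the groups compared fitted alone, quantile, loess and median scaling, a robust trended prior, no dim probe sets, probe sets of a single gene only, median probe sets, a replicate term, a Y-linked covariate, no fold threshold and hearts left out. Figures used matplotlib 3.10.9 under Python 3.11.15. The number of arrays limits the precision.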

Additional observations from a re-analysis of the deposited data

Results flagged for a closer look

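In 8 of 124 groups of 4 hearts, 1 heart lay far from the other 3 for its gene on the log2 scale, where chance alone gives about 1 in 20. For *Sema3a*, mutant E11.5 replicate 4 was at 8.66 (others 9.02 to 9.05), and for *Sema5a* it was at 7.71 (8.38 to 8.50). For *Sema4a*, control E11.5 replicate 4 was at 6.44 (6.81 to 6.84). For *Nrp1*, mutant E11.5 replicate 3 was at 10.55 (10.81 to 10.83) and mutant E13.5 replicate 3 at 11.15 (11.26 to 11.27). For *Plxnb2*, control E13.5 replicate 4 was at 11.66 (11.42 to 11.45) and mutant E13.5 replicate 2 at 11.37 (11.46 to 11.47). For *Plxnd1*, mutant E13.5 replicate 3 was at 11.07 (11.12 to 11.13). No member had a genotype effect that differed between the stages by test.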

How the results depend on the processing

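The count of members lower at E11.5 (1, *Sema3a*) was 0 when the stage was fitted alone and 1 in the other alternatives. At E13.5 it was 0 when the stage was fitted alone, after quantile normalisation, with arrays centred on their medians, with the Y-linked covariate and without the 3 hearts that stood apart, and 0 to 1 with single hearts left out. The count for the mean over both stages (2) was 1 without those 3 hearts and 2 without each single heart. With a term for the replicate number (replicate block) it was 1, as *Sema3c* was lost (adjusted p = 0.0662), and that at E13.5 was 0. The labels do not say what the number stands for. Deviations of hearts sharing one correlated at -0.052 to 0.043 over all genes. This cannot show whether a number marks a shared litter or batch that acts on some genes. The exact p of *Sema3c* at E13.5 was 0.0571 with centred arrays. Its difference between stages changed sign, to 0.0092 after quantile normalisation, 0.0305 with the Y-linked covariate and, over single hearts left out, -0.14 to 0.11.

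With stage in control hearts, the members lower (0) were 2 on quantile or loess values alone and 1 with no fold threshold, and those higher (2) were 4 with centred arrays and 5 with no fold threshold. In mutant hearts those lower (0) were 1 on loess values and 0 to 1 with single hearts left out, and those higher (1) were 5 with centred arrays, 2 with the Y-linked covariate, 6 with no fold threshold, 2 without the 3 hearts, 2 on deposited values alone (an alternative chosen after seeing the data) and 1 to 2 with single hearts left out. Of the 38 pathway genes, 1 was higher at E11.5 after quantile normalisation (*Met*). Their counts for the mean effect were 0 lower and 0 higher without the 3 hearts, and 0 to 1 each with single hearts left out. With stage, control counts were 1 to 2 lower and 4 to 6 higher with single hearts left out, and mutant counts were 0 lower and 3 higher without the 3 hearts, and 3 to 5 higher with single hearts left out. The mean effect and the test between stages could not be refitted with the groups compared alone. The cause of these changes was not tested.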
